A study of Mus musculus with 94 samples.

Results

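Genes that are used to tell arteries, veins and capillaries apart, 10 in all, were followed in single perivascular adipose-derived stem cells (PV-ADSCs). The 4 arterial genes were *Efnb2*, *Bmx*, *Gja4* and *Sema3g*, the 3 venous genes were *Ephb4*, *Nr2f2* and *Vwf*, and the 3 capillary genes were *Plvap*, *Car4* and *Aqp1*. All 10 had a row among the 16069 genes of the deposited expression matrix. They were read in the 27 of 85 cells with a deposited *Dcn* value under 1000 and, for contrast, in the 58 cells at or above it. *Dcn* encodes decorin, a matrix proteoglycan of fibroblast-like stromal cells. The members took no part in this division.

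The cells came from the fat around the thoracic aorta of c57/bl mice aged 8 weeks and the labels name no transgene or treatment. They were sorted as live cells that carried CD29 and Sca1 and lacked CD45 and the endothelial cadherin CDH5, and full-length cDNA of each cell was sequenced. The labels name no animal for a cell, so the 85 cells are treated as 1 sample and differences between cells carry no test. Of the 94 cells that are described, 9 are not analysed here.

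The inner lining of arteries, capillaries and veins is made of the same cell type with different gene programmes. Ephrin-B2 (*Efnb2*) is a membrane ligand of arterial endothelium, and its receptor EphB4 (*Ephb4*) lies mainly on venous endothelium, so that the pair marks the border between the sides. *Nr2f2* encodes COUP-TFII, a nuclear receptor that keeps venous identity by holding Notch signalling down, and it is also used outside the endothelium by many stromal cells. Capillaries, where exchange takes place, carry the membrane-anchored carbonic anhydrase 4 (*Car4*) and, in many beds, the water channel aquaporin 1 (*Aqp1*).

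The upstream sequences of *Car4* and *Aqp1* are shown because these genes carried most of the signal in the cells under the *Dcn* limit. Each is the 250 bases before the gene start on the gene's own strand, from RefSeq on GRCm38.p6, a later build than the mm9 of the deposited matrix. *Car4* lies at chr11:84957504-84957753 (plus strand) and *Aqp1* at chr6:55336049-55336298 (plus strand). Capitals mark the ETS motif, searched as AGGAAG or CGGAAG on both strands. The family of ETS factors, with ERG and FLI1 among them, is used throughout the endothelium.
Car4 upstream: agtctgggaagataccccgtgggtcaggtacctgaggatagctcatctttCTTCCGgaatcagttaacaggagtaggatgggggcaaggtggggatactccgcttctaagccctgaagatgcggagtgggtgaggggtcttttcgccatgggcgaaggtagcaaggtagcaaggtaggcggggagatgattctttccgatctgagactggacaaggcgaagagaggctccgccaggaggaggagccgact
Aqp1 upstream: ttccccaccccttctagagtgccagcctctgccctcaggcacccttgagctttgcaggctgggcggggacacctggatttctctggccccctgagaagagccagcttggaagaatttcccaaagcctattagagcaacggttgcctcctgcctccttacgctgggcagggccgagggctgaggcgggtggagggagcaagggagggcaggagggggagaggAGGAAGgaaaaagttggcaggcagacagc

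The motif stood in 4 of the 8 members with a RefSeq entry, *Aqp1*, *Car4*, *Nr2f2* and *Sema3g*, against 39.2% of 32851 promoter windows of the same length. A SOX motif (ACAAAG or ACAATG, in 25.2% of windows) and a GATA motif (AGATAA or TGATAA, in 16.6%) each stood in 1 of the 8, *Bmx*. The KLF motif CCACACCC, in 3.20% of windows, stood in none of the 8. No motif's letters are part of another's. *Plvap* and *Vwf* had no entry in the sequence table.

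The cells under the *Dcn* limit held endothelial genes although the sort was meant to leave CDH5-bearing cells out. Of 15 endothelial markers, 24 of these 27 cells held 3 or more at 10 or more reads, with a median of 7 and a range from 0 to 12. *Cdh5* itself reached 10 reads in 21 of the 27 cells and in 1 of the 58 others. The cells at or above the limit held a median of 9 of 10 stromal markers, and 4 of 58 held 3 or more endothelial ones. The deposited *Dcn* value ran from 5.17 to 269 under the limit and from 6521 to 365531 above it. The cells nearest to the limit from below had values of 269 (cell 20), 239 (cell 48) and 88.2 (cell 58), and those from above 6521 (cell 50), 11185 (cell 61) and 23960 (cell 68). The summed reads of the stromal markers in cells under the limit ran from 3 to 7652 with a median of 13, against 18 to 225671 with a median of 70568 above the limit.

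A few cells went against their class. Cell 50 lay above the limit through a factor of 94.5 in the authors' scaling of *Dcn*, and only 69 *Dcn* reads stood behind its value. It was the shallowest cell, with 1146945 reads, and it held 3 endothelial markers (among them *Kdr* at 16197 reads and *Cd93* at 4577) and none of the 10 stromal markers at 10 reads. Cell 34, with 73060 *Dcn* reads, held 7 endothelial and 9 stromal markers. At the other side, cells 13, 67 and 89 lay under the limit with 377, 285 and 405 genes detected, held at most 1 endothelial marker, and had no member. Values are given without cells 34 and 50 where they matter.

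**Figure D1:**
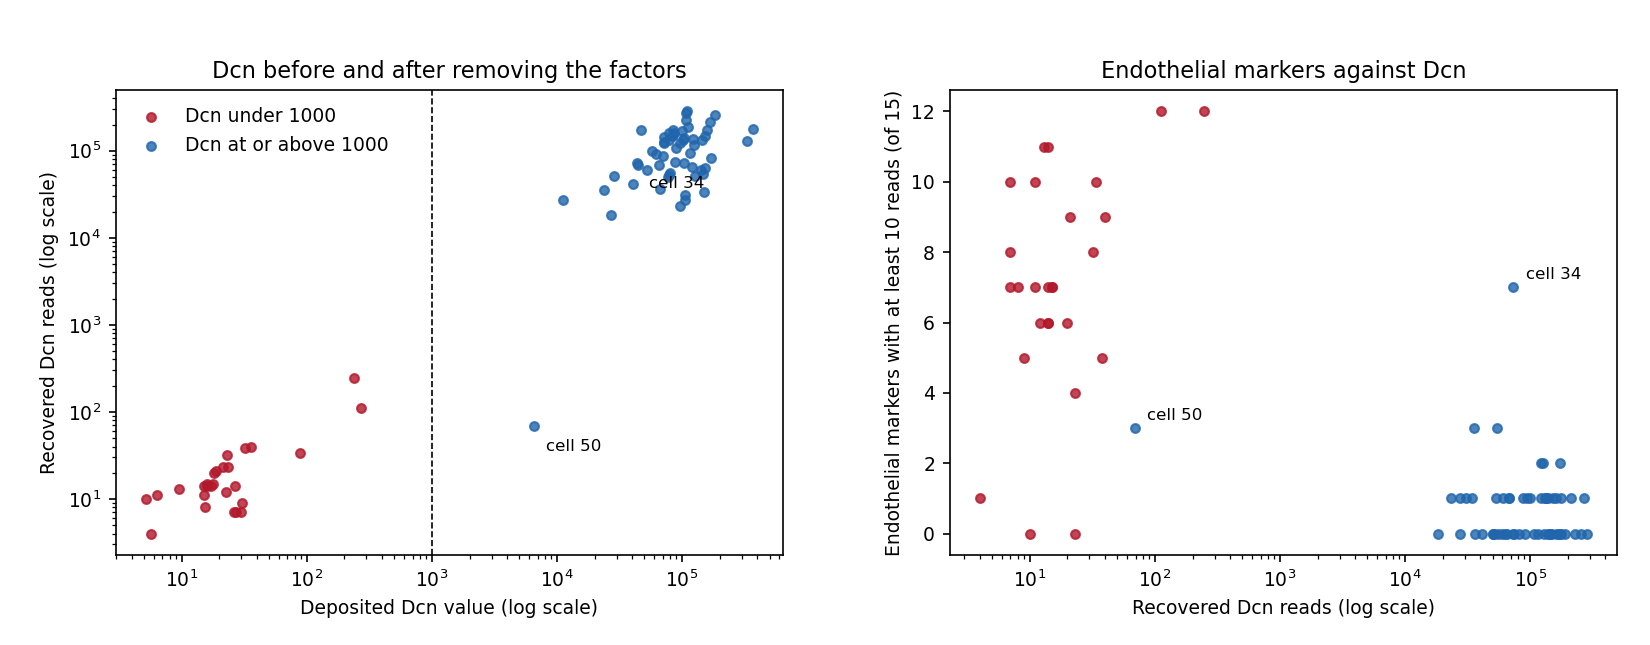
Left, recovered *Dcn* reads against the deposited *Dcn* value, both on log scales, with the limit of 1000 as a dashed line. Right, the number of 15 endothelial markers with at least 10 reads against *Dcn* reads. Each point is a cell (27 red, 58 blue). Cell 50 lies among the red cells by its 69 reads, and cell 34 stands above the other blue cells with 7 markers.

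Reads per cell were read back from the deposited values, which are whole numbers of reads multiplied by a factor for each cell and group of genes. In the matrix, *Efnb2*, *Ephb4*, *Vwf*, *Bmx*, *Gja4*, *Sema3g* and *Plvap* held whole numbers as deposited, and *Nr2f2*, *Car4* and *Aqp1* were divided by their factors. Cells under the limit held a median of 2714449 reads (1727402 to 3655526) and 1416 genes, and those above held 2963854 (1146945 to 4776510) and 2813 genes. Shares of cells are given with exact 95% Clopper-Pearson intervals, which cover counting error only. For a gene in no cell, the limit given is 3 cells of the total in place of an interval. Means of log2(value + 1) are over cells with their SD.

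Under the limit, the members other than *Car4* and *Aqp1* were found in few cells, and most member values above 0 were high. The same count of values was not made for all genes. In the 27 cells under the limit, 44 values were above 0, of which 39 reached 100 reads and 33 reached 1000. The other 5 values were 4 reads or fewer, and none lay from 10 to 99. In the 58 cells above the limit, 27 values were above 0, of which 12 were under 10 reads and 4 reached 1000. At 10 reads, 20 of the 27 cells and 13 of the 58 held at least 1 member.

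**Figure D2:**
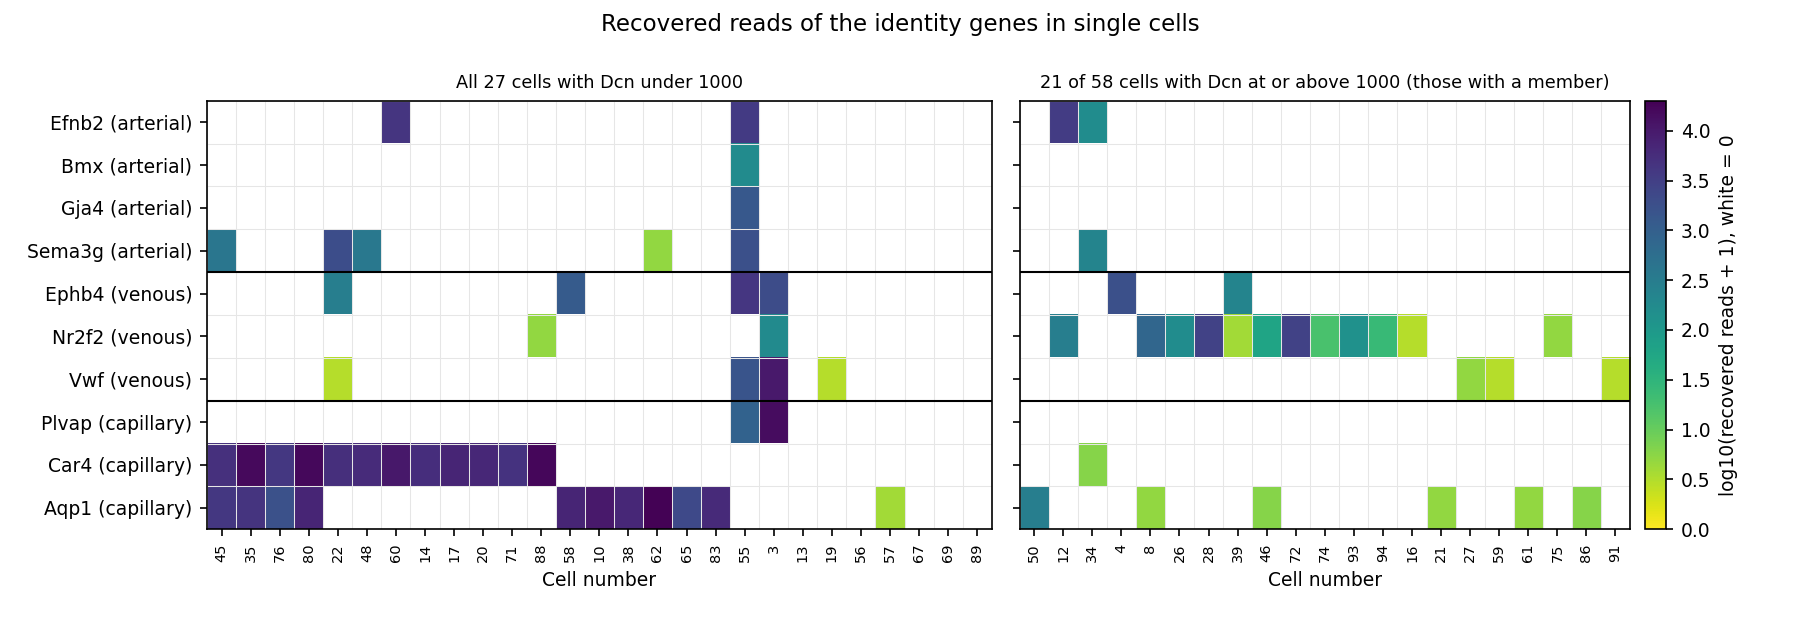
Recovered reads of the 10 genes (rows, with their assigned vessel) in cells (columns, by cell number), as log10(reads + 1) with white for 0. The left panel holds all 27 cells with *Dcn* under 1000 and the right panel the 21 of 58 others with any member. *Car4* and *Aqp1* fill the left panel's lower rows, cells 55 and 3 hold most of the other genes, and *Nr2f2* is the main row on the right.

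*Car4* was the member found in the most cells under the limit. It was above 0 in 12 of 27, a share of 44.4% (25.5 to 64.7), and none of the 12 held fewer than 3942 reads. The reads were 3942 in cell 76, 4670 in cell 71, 5115 in cell 45, 5272 in cell 22, 5466 in cell 14, 5793 in cell 48, 6738 in cell 20, 7037 in cell 17, 10717 in cell 60, 15326 in cell 35, 15858 in cell 80 and 16954 in cell 88. The other 15 cells held no *Car4* read, so the cells fell into a high and an empty set with nothing between. *Car4* was not alone in this. Under the limit, *Rgcc* was in 17 cells with at least 3460 reads and *Gpihbp1* in 21 with at least 2056. By contrast, *Timp4* ran from 2 to 16900 reads in the 18 cells that held it. Above the limit, only cell 34 held *Car4*, with 5 reads, and without that cell *Car4* was in 0 of the 57 left. The mean log2(value + 1) was 5.68 ± 6.50 (SD over 27 cells) under the limit and 0.05 ± 0.35 above it, a difference of 5.64.

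*Aqp1* was above 0 in 11 of 27 cells under the limit, or 40.7% (22.4 to 61.2), and reached 10 reads in 10. The reads were 1681 in cell 76, 2258 in cell 65, 4068 in cell 45, 4507 in cell 35, 6180 in cell 83, 6603 in cell 38, 7175 in cell 58, 7297 in cell 80, 10096 in cell 10 and 18785 in cell 62, with 3 reads in cell 57 besides. Its means were 4.84 ± 6.22 and 0.48 ± 2.06, a difference of 4.36. Above the limit *Aqp1* was in 6 of 58 cells, at 4 or 5 reads in 5 of them. The sixth was cell 50, whose 287 reads became a deposited value of 27125, above that of every cell under the limit (highest 22104, in cell 38). With cells divided at 1000 *Dcn* reads instead, cell 50 moves to the lower class and no cell of the upper class reaches 10 *Aqp1* reads.

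The capillary pair, *Car4* and *Aqp1*, shared some of their cells and not others. Whether a 0 was a missed transcript was not tested. At 10 reads, 8 of the 27 cells held *Car4* alone, 6 held *Aqp1* alone, 4 held both (cells 35, 45, 76 and 80) and 9 held neither. Over the 27 cells the Spearman correlation between the pair was -0.17, a description over cells that share a sort and a library protocol. In the 4 shared cells *Aqp1* reads were fewer than *Car4* reads in each, and the *Aqp1* transcript is the longer.

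*Plvap*, whose product forms the diaphragms of caveolae and fenestrae, was found in 2 of 27 cells, 7.41% (0.910 to 24.3), with 14505 reads in cell 3 and 869 reads in cell 55. Neither cell held *Car4* or *Aqp1*. *Plvap* was in 0 of 58 cells above the limit, which allows a share of up to 5.17%.

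The arterial genes were each found in 1 to 5 of the 27 cells. *Sema3g*, a secreted class 3 semaphorin of arterial endothelium, was the most frequent, in 5 cells, with 1930 reads in cell 22, 1787 in cell 55, 412 in cell 45, 376 in cell 48 and 4 in cell 62. The share was 18.5% (6.30 to 38.1), against 1 of 58 cells above the limit, which was cell 34 with 226 reads, and none without it. The means were 1.53 ± 3.55 and 0.13 ± 1.03. All but cell 55 of these 5 cells held *Car4* or *Aqp1* as well.

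*Efnb2* was in 2 cells under the limit, with 4363 reads in cell 60 and 3758 in cell 55. It was also in 2 of 58 cells above the limit, with 3467 reads in cell 12 and 158 in cell 34. The shares were 7.41% (0.910 to 24.3) and 3.45% (0.420 to 11.9). These intervals overlap, and the difference was not tested. *Bmx*, a cytoplasmic tyrosine kinase of arterial endothelium, and *Gja4*, the gap junction protein connexin 37, were found only in cell 55, with 170 and 1291 reads. Both were in 0 of 58 cells above the limit.

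The venous genes did not follow a common pattern. *Ephb4* was in 4 of 27 cells, with 4089 reads in cell 55, 1984 in cell 3, 1161 in cell 58 and 290 in cell 22, and in 2 of 58 cells above the limit, with 1791 reads in cell 4 and 232 in cell 39. Its shares were 14.8% (4.19 to 33.7) and 3.45% (0.420 to 11.9), with means of 1.53 ± 3.78 and 0.32 ± 1.74. *Vwf*, the clotting glycoprotein that endothelial cells store, was in 4 of 27 cells but reached 10 reads in only 2, with 10201 reads in cell 3 and 1517 in cell 55. The other 2, cells 19 and 22, held 2 reads each, which is like the 2 to 4 reads of the 3 cells with *Vwf* above the limit.

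*Nr2f2* was the only member with the larger share and the higher mean above the limit. It was in 12 of 58 cells there, 20.7% (11.2 to 33.4), and in 2 of 27 under the limit, 7.41% (0.910 to 24.3). Of the 12 cells, 6 reached 100 reads, namely cells 72 (2798), 28 (2789), 8 (747), 12 (290), 26 (158) and 93 (131). The others were cell 46 with 60 reads, cell 94 with 24, cell 74 with 16, cell 75 with 4, cell 39 with 3 and cell 16 with 2. Under the limit it was 176 reads in cell 3 and 4 in cell 88. The means were 0.35 ± 1.45 under and 1.28 ± 2.92 above, a difference of -0.93, and the intervals of the shares overlap.

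**Figure D3:**
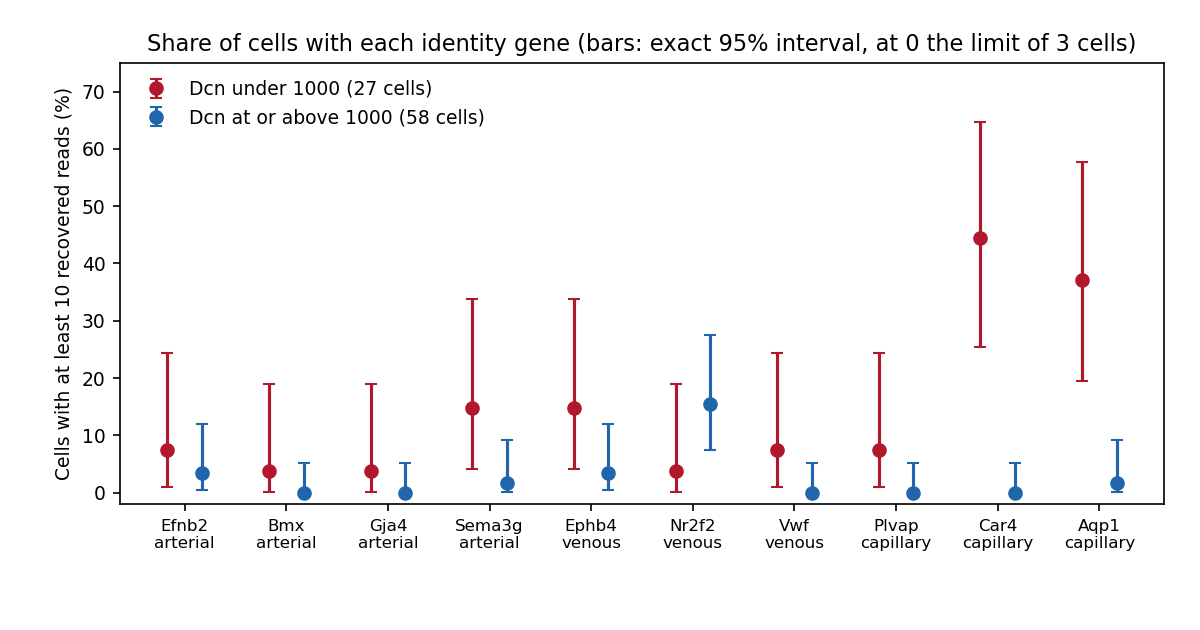
Share of cells (percent) with at least 10 recovered reads of each gene, for 27 cells with *Dcn* under 1000 (red) and 58 at or above it (blue). Bars are exact 95% intervals for counting error and, for a share of 0, reach the limit of 3 cells. The intervals of *Car4* (44.4% against 0%) and *Aqp1* (10 of 27 cells against 1.72%) lie apart, and those of the other 8 genes overlap. How many of all genes have intervals that lie apart was not counted.

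Read against the whole matrix, 7 members passed the filter of at least 3 cells with a read. Of these, 4 had a mean of log2(value + 1) higher by 1 or more under the limit (*Ephb4*, *Sema3g*, *Car4* and *Aqp1*), where 2.84% of the 11478 genes that passed did. None of the 7 was lower by 1, where 35.6% of genes were. *Car4* and *Aqp1*, 2 of the 7, had a share of cells larger by 25 percentage points, with 42.7 and 30.4 points, where 0.828% of genes did. None had a smaller share by that margin, where 18.6% did. *Bmx*, *Gja4* and *Plvap* were above 0 in too few cells to pass this filter. A member above 0 in few cells that all lie in the same class has a difference fixed by those cells. *Car4*, *Sema3g* and *Ephb4* passed the filter only through cells under the limit (12, 5 and 4 cells, against 1, 1 and 2). The members were also chosen with earlier results of these data known, so no more is read from the counts.

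Arterial and venous members were each found in few cells. At 10 reads, 3 of the 27 cells held arterial members alone (45, 48 and 60), 2 held venous members alone (3 and 58), 2 held both (22 and 55) and 20 held neither. Of the 7 cells with an arterial or venous member, 5 also held *Car4* or *Aqp1*, and 13 cells held *Car4* or *Aqp1* without an arterial or venous member. The ligand and its receptor, *Efnb2* and *Ephb4*, met in cell 55 only. General endothelial markers also varied, from 2 of the 27 cells at 10 reads (*Erg*) to 21 (*Cdh5*), with *Ecscr* in 5 and *Tie1* in 7. Of these markers, only *Erg* was in as few cells as the arterial and venous members, which were each in at most 4. Whether a member at 0 was missed in a cell or not used by it was not tested.

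Cell 55 held 7 of the 10 members, more than any other cell. All 4 arterial genes were present together with *Ephb4*, *Vwf* and *Plvap*, while *Car4*, *Aqp1* and *Nr2f2* were at 0. Of the further arterial genes, looked up after this was seen, it held *Stmn2* at 10451 reads, *Ltbp4* at 10336, *Tm4sf1* at 4936, *Notch1* at 1444 and *Jag2* at 479. Of the further venous genes it held *Icam1* at 3849 reads and *Il6st* at 1295. Of the further capillary genes it held *Cav2* at 14304 reads, *Cav1* at 4153 and *Fabp4* at 1778, while *Cd36*, *Gpihbp1* and *Rgcc* were at 0. It held 9 endothelial markers and 2 stromal ones, and *Mfap5*, a microfibril gene of stromal cells, stood at 7630 reads. Its 1731 genes lay within the range of the other cells under the limit. Without it, *Bmx* and *Gja4* were in no cell at all.

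Cell 3 held 4 members, all of the venous set and *Plvap*, with no arterial member. Its *Vwf* and *Plvap* reads were the highest of any cell. Of the further venous genes, looked up after its values were seen, it held *Emcn* at 17542 reads, *Lrg1* at 3674, the chemokine receptor *Ackr1* at 3298, *Il6st* at 474 and *Ptgs1* at 338. Above the limit, *Ackr1* was in 10 of 58 cells and *Ptgs1* in 29, against 2 and 1 of 27 under it. Of the further arterial genes cell 3 held *Fbln5* at 6547 reads, *Tm4sf1* at 1399 and *Mecom* at 199. *Fbln5* was in 37 of 58 cells above the limit, against 7 of 27 under it. It held 7 further capillary genes, *Fabp4* at 57473 reads, *Fabp5* at 9612, *Cd36* at 4623, *Gpihbp1*, the lipase anchor of capillaries, at 4513, *Cav1* at 1595, *Tspan7* at 1047 and *Kdr* at 308, but no *Rgcc*. It had 9 endothelial and 0 stromal markers. Cells 22 and 45 held 3 members each at 10 reads, 6 cells held 2, 10 cells held 1, and 7 cells held none, of which 5 had no read of any member.

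The 18 cells with *Car4* or *Aqp1* held 8 to 15 of the 20 further capillary genes (median 12), all at 10 reads, whereas cells 3 and 55 held 7 and 3. The 7 cells without any member at 10 reads held 1 to 12 (median 9). They also held fewer genes, 285 to 1093 with a median of 854, against 869 to 2278 with a median of 1479 in the 18 cells, and how far the lower detection goes with the missing members was not tested.

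Levels are given as RPKM, reads per kilobase of exon scaled to an equal total in each cell, which allows genes to be compared. Among cells under the limit that held a gene at 10 reads, *Car4* was the highest. Its median level was 2172 (1216 to 4533, 12 cells), followed by *Plvap* at 1327 (150 to 2503, 2 cells) and *Aqp1* at 850 (248 to 2075, 10 cells). *Efnb2* had a level of 327 (269 to 384, 2 cells), *Gja4* of 263 (1 cell), *Vwf* of 205 (53.3 to 358, 2 cells), *Ephb4* of 139 (21.2 to 321, 4 cells) and *Sema3g* of 84.5 (29.1 to 136, 4 cells). *Bmx* at 18.9 and *Nr2f2* at 12.4, each in 1 cell under the limit, were the lowest. Cells above the limit are not in this order. There *Nr2f2* ran from 1.41 (cell 74) to 175 (cell 28) in 9 cells. *Efnb2* reached 285 (cell 12) and *Ephb4* 160 (cell 4). Neighbours in this order whose ranges overlap are *Car4* and *Plvap*, *Plvap* and *Aqp1*, *Aqp1* and *Efnb2*, *Gja4* and *Vwf*, *Vwf* and *Ephb4*, and *Ephb4* and *Sema3g*. No order is read within these pairs. The ranges of *Car4* and *Efnb2*, further apart in the order, do not overlap. All ranges are over cells of 1 sample, those of *Plvap*, *Efnb2* and *Vwf* over 2 cells each, and no difference was tested. The steps to *Gja4*, *Bmx* and *Nr2f2* each rest on 1 cell. Exon lengths came from a GRCm38 annotation, and no exon of another gene overlaps a member's exons there.

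Among 2313 genes above 0 in at least 5 of the 27 cells, those most like *Car4* over these cells were *Pet100* (Spearman's rho 0.80), *Gm4335* (0.79) and *Rgcc* (0.76). *Pet100* and *Gm4335* were each above 0 in 7 cells, all of them *Car4* cells, and in 22 and 4 of 58 cells above the limit. *Rgcc*, a regulator of the cell cycle that is abundant in capillary endothelium, was in 17 of the 27 cells and in all 12 *Car4* cells, against 3 of 58 cells above the limit. Most like *Aqp1* were *Gm14165* (0.68), *Cbx1* (0.60) and *Cxcl9* (0.59), the last a chemokine found in 9 of the 11 *Aqp1* cells and 13 of the 27 in all. *Gm14165* was also in 34, *Cbx1* in 28 and *Cxcl9* in 4 of 58 cells above the limit. Most like *Sema3g* were *Med21* (0.78), *Fam91a1* (0.70) and *Tmco1* (0.63), each in 4 of its 5 cells, and in 29, 20 and 29 of 58 cells above the limit. All are rank correlations over 27 cells in which most values are 0.

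Further genes of each vessel type were counted by the same rule, by which 2.84% of all 11478 genes were higher and 35.6% lower. The lists were chosen with earlier results of these data known, and the paper names *Cd36* and *Fabp4* for its cluster 1. Some genes passed the filter only through 1 class, such as *Rbp7* (10 against 1 cells above 0) and *Jag1* (0 against 7). The counts are therefore a description and no separate support. Of the 19 capillary genes that passed the filter, 17 were higher by 1 or more under the limit and 1, the lipoprotein lipase *Lpl*, was lower, with a median difference of 5.19 against -0.64 over all 11478 genes. Those found in the most cells were *Fabp4*, a fatty acid binding protein (27 of 27 cells at 10 reads, difference 9.90), the fatty acid translocase *Cd36* (25 cells, 9.14), *Gpihbp1* (21 cells, 9.53), the caveolar coat gene *Cav1* (20 cells, 6.74) and *Tspan7* (20 cells, 7.99). *Fabp4* was also above 0 in 55 of 58 cells above the limit. There it reached 10 reads in 23 cells, *Cav1* in 9, *Cd36* in 7, *Gpihbp1* in 4 and *Tspan7* in 2. Of the 13 arterial genes so filtered, 7 were higher and 4 lower, with a median of 1.12. *Tm4sf1* was in 14 cells at 10 reads (difference 3.33), *Cxcl12* in 12 (17 of 58 above the limit), *Mecom* in 9 (2.06) and *Nrp1* in 7 (0.21), while *Ltbp4*, in 10 cells, was lower by the same measure (-5.32) and was in 51 of 58 cells above the limit. Of the 10 venous genes, 3 were higher and 5 lower, with a median of -0.58, close to the -0.64 of all genes. *Emcn* was in 13 cells at 10 reads (4.47) and *Nrp2* in 5 (1.73), while *Il6st* (-4.55) was above 0 in 48 of 58 cells above the limit, and *Icam1* differed by -0.08. *Tmem252* was in 3 cells at 10 reads, against 1 of 58 above the limit. *Ltbp4* and *Il6st* are also used by stromal cells, and *Emcn* (venous) and *Kdr* (capillary) are among the 15 endothelial markers as well.

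**Figure D4:**
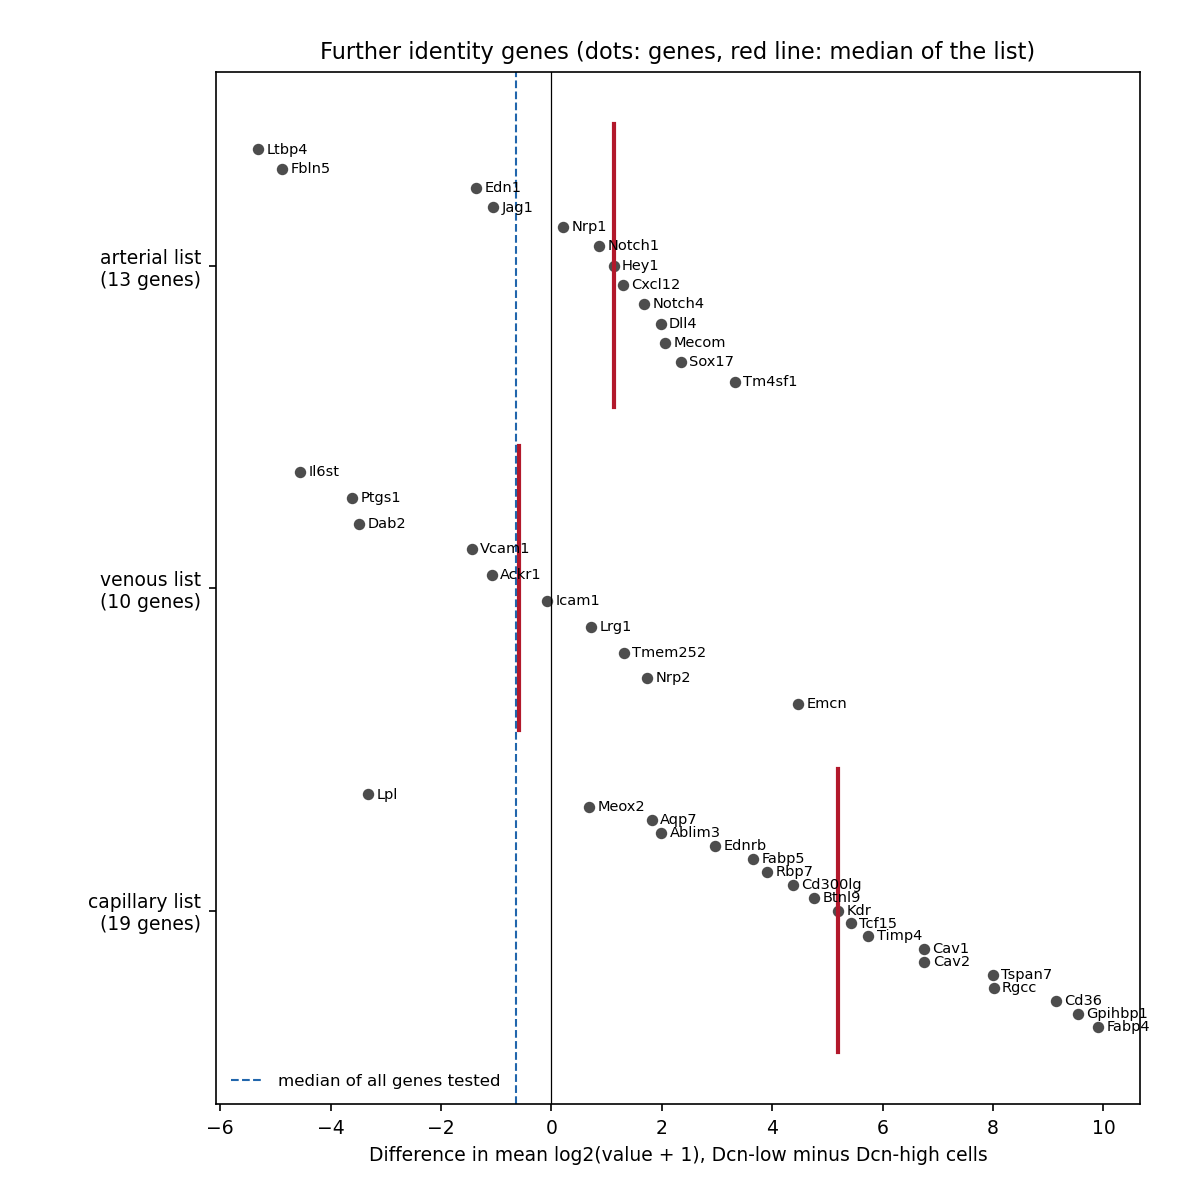
Difference in mean log2(value + 1), 27 cells with *Dcn* under 1000 minus 58 at or above it, for further arterial (13), venous (10) and capillary (19) genes. Each dot is a gene, red lines mark the medians of 1.12, -0.58 and 5.19, and the dashed line the median of -0.64 over 11478 genes. Of the capillary genes only *Lpl* lies left of 0.

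Markers of other cells were mostly at 0 in the cells under the limit. All 6 mesothelial, 3 platelet, 3 red cell and 2 leukocyte markers with a row were at 0 in all 27, as was the adipocyte gene *Adipoq*. Of the lymphatic markers, *Pdpn* was at 0 and *Flt4* was in 2 cells, the higher with 2774 reads (cell 48). Of 7 pericyte and smooth muscle markers with a row, 5 were at 0, and *Rgs5* or *Mcam* reached 10 reads in 5 cells, namely 17, 20, 35, 38 and 80, each of which also held *Car4* or *Aqp1*. The summed reads of that list ran from 0 to 3914 with a median of 0, and its part in the *Car4* and *Aqp1* values was not tested.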

How the data were processed

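Single PV-ADSC libraries were made with the SMART-Seq v4 chemistry at reduced volume. According to the submitters' processing notes and the study's methods, the authors aligned reads to mm9 with HISAT2 (version 2.0.5), handled them with SAMtools (1.4), assembled them with StringTie (1.3.3) and scaled counts with the scater package. The values deposited by the authors are a signal, that is, read counts multiplied by cell-specific factors.

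Whole reads were recovered by finding the factor of each cell in 13 groups of genes. All 200972 values above 0 came out whole within 6e-09 of the value or 1e-06 reads. The factors ran from 0.0157 to 94.5. Cells held 1146945 to 4776510 recovered reads, which sets the precision. A pseudocount of 1 was added before log2, and calls across genes used a difference of 1 or of 25 percentage points over genes above 0 in at least 3 cells. No doublet caller was run. No test was run, since the 85 cells stand for 1 sample. A gene in 0 cells was given an upper limit of 3 cells. Named genes were all members, *Dcn*, the endothelial markers, the 3 genes most like each member found in at least 5 cells, the 5 genes of each further list found in the most cells, and genes of related families above 0 in at least 5 cells of either class. An item of the venous list is not reported here and was left out of its counts. The members and lists were chosen with earlier results of these data known. The recovery and the sign of a difference in means were tried on simulated data, with factors over a narrower range than 0.0157 to 94.5. The shares and the counts of cells were not tried in this way. Python 3.11.15, numpy 2.4.6, pandas 2.3.3 and scipy 1.17.1 were used.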

Additional observations from a re-analysis of the deposited data

How the results depend on the processing

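Of the 10 members, 9 had the larger share of cells, and 9 the higher mean, under the *Dcn* limit in the original setting and in each alternative run for it (10 or 100 reads for detection, other *Dcn* limits, only cells with at least 3 endothelial markers or 500 genes, thinning to 1146945 reads, a pseudocount of 10, CPM of recovered reads), *Nr2f2* being the exception throughout. No direction was reversed. *Bmx* and *Gja4* are among the 9 only through cell 55, *Plvap* through 2 cells, and *Efnb2* was in 2 cells of each class. Over the 11478 genes that passed the filter, the median difference was -0.64, and 2.84% were higher by 1 under the limit. How many of all genes had any larger share or any higher mean there was not counted. The 9 of 10 is therefore not read against all genes. The number of genes higher by 1 fell from 326 to 209 and of those lower from 4088 to 2353 with a pseudocount of 10. Cells with venous members alone went from 4 at any read to 2 at 10 and at 100 reads, and cells with both arterial and venous members from 2 to 1 without cell 55. The last setting, the limit of 1000 *Dcn* reads, the exclusion of cell 34 and the count without *Nr2f2* were chosen after seeing the data. Of the 90 shares recomputed for cells above the limit, 9 moved outside their interval, to 0 for *Sema3g* and *Car4* without cell 34, to 0 for *Vwf* and *Car4* and to 1.72% for *Aqp1* at 10 reads, and to 10.3% for *Nr2f2* at 100. None of the 90 shares under the limit and none of the 80 mean differences moved. No paired analysis was possible because the cells form 1 group. With 27 cells under the limit, a gene in 0 of them may still be in up to 11.1% of such cells, and all intervals cover counting error only.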

Other observations

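Of 14 relatives of the members in 4 families that passed the filter, 2 were higher under the *Dcn* limit by 1 or more, 3 were lower and 9 lay between, where 2.84% of all genes were higher and 35.6% lower. Of 8 other ephrin and Eph genes that passed the filter, the ligand *Efna1* was higher under the limit (difference in mean log2(value + 1) 1.84, 6 of 27 against 5 of 58 cells) and *Efna5* (-1.63, 0 against 10 cells) and *Ephb2* (-1.05, 0 against 7 cells) were lower. *Ephb3* and *Epha4* were in 0 against 5 and 6 cells (-0.77 and -0.90), and *Efnb1* was in 4 against 8 (0.26). Of the connexins, *Gja1*, which encodes connexin 43, was in 4 of 27 and 27 of 58 cells (-1.68), *Gjc1* in 2 and 5 cells (0.27) and *Gjb5* in 0 and 5 cells (-0.53). *Aqp7*, a channel for water and glycerol, was the other aquaporin with a row and was in 5 of 27 cells against 2 of 58, the latter at 3 and 5 reads (1.81). Among the other carbonic anhydrases, *Car13* was in 0 of 27 and 7 of 58 cells (-0.99).

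No secreted class 3 semaphorin other than *Sema3g* reached 10 reads in a cell under the limit. *Sema3c* was above 0 in 31 of 58 cells and in 5 of 27, none of the latter at 10 reads (-4.68), and *Sema3d* in 25 of 58 and 1 of 27 (-3.36). *Sema3a* and *Sema3b* were in 8 and 5 of 58 cells and in 0 of 27 (-0.86 and -0.65). Of their receptors, *Nrp2* (7 of 27 against 2 of 58 cells, 1.73) and *Plxna2* (9 against 8 cells, 1.48) were higher under the limit, and *Nrp1* (10 against 17 cells, 0.21), *Plxnd1* (2 against 7 cells, -0.07) and *Plxna1* (0 against 5 cells, -0.72) differed by less than 1.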
